A study of Mus musculus with 12 samples.

Results

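Interleukin-1 acts on cells through a receptor made of Il1r1, which binds the cytokine, and Il1rap, the accessory chain that joins it. The intracellular TIR domains of both chains recruit the adaptor Myd88, which gathers the kinases Irak4, Irak1 and Irak2, and these hand the signal to the ubiquitin ligase Traf6 and the kinase Map3k7 (TAK1), upstream of NF-kB and MAP kinases. Tollip and Sigirr restrain the pathway. In the hypothalamus the pathway is known for fever, sickness behaviour and reduced feeding, and Il1r1 has been studied in mice as a gene that celastrol needs for its effect on body weight. These 10 genes, chosen by name as the receptor and its adaptors with earlier results of these data known, were examined in the hypothalamus of obese mice. For each gene the probe set (the group of array probes read as 1 value) with the highest mean and only 1 gene symbol was taken. Of the 10 genes, 8 were among the 19938 genes on the array with such a probe set. No probe set is listed under Il1r1 or Irak4 in the gene table used here, so the ligand-binding chain and the first kinase were not analysed here. Each of the other 8 had 1 probe set and a mean above the 25th percentile of gene means (a log2 signal of 5.81), so all 8 were among the 14953 genes tested.

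Male C57BL/6J mice in all groups ate a diet with 45% fat for 20 weeks from an age of 3 weeks and were 23 weeks old. All received DMSO, the vehicle, by daily intraperitoneal injection for 4 days. For another 4 days 1 group stayed on DMSO, while the second was given celastrol (100 µg/kg) and the third withaferin A (2 mg/kg). Celastrol, a triterpenoid, and withaferin A, a steroidal lactone, are plant compounds known to reduce feeding and weight of obese rodents, and their doses here differed. Total hypothalamic RNA was measured on 12 arrays, 4 biological replicates per group, and values are log2 signals, on which a difference of 1 is a doubling. Whole tissue was used, so a change in the number of cells of a type and a change in RNA per cell cannot be told apart. Array medians lay between 6.89 and 6.98, and all 7 hypothalamic marker genes with a value, of 8 listed, were above the 25th percentile. Marker scores (the mean of a list's values minus their DMSO mean) showed celastrol arrays apart from DMSO arrays for 2 lists. Pituitary markers, with values for 6 of 7 genes, scored 0.35, 2.13, 0.37 and 0.44 on celastrol replicates 1 to 4 and −0.23 to 0.17 with DMSO. Oligodendrocyte markers, with values for 5 of 6 genes, scored −0.24 to −0.21 with celastrol and −0.06 to 0.08 with DMSO. Taken singly, 0 of the tested pituitary markers separated celastrol from DMSO arrays. Of the 5 oligodendrocyte genes, 3 were lower on every celastrol array than on every DMSO array, and 1 was higher. Over all genes tested 7.21% did not overlap in this comparison, in either direction. At an adjusted p under 0.05, 1 of the 5 fell and 0 rose, beside 0.769% of all genes. For withaferin A the pituitary and oligodendrocyte scores were 0.03 to 0.42 and −0.24 to −0.03, and its arrays overlapped those of DMSO for each of the 11 marker lists.

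None of the 8 measured members passed the threshold, an adjusted p under 0.05 over all genes tested, in any of the 3 comparisons. Myd88 and Irak2 came closest: both lay higher on each celastrol array than on each DMSO array, on average 1.24-fold and 1.26-fold, and are described first. For the other 6 the 95% interval of the celastrol difference included 0. The promoters of Myd88 and Irak2, and that of Irak1 as a kinase of the same step whose groups overlapped, are shown because Myd88 and Irak2 lay nearest the threshold. Whether members differed from each other was not tested. Each is the RefSeq sequence of GRCm38.p6 from 250 bases before to 50 after the annotated start, 5′ to 3′ on the gene's strand. Myd88 is at chr9:119339969-119340268 (minus), Irak2 at chr6:113638217-113638516 (plus) and Irak1 at chrX:74023872-74024171 (minus). Capitals mark matches to the motifs searched.
Myd88: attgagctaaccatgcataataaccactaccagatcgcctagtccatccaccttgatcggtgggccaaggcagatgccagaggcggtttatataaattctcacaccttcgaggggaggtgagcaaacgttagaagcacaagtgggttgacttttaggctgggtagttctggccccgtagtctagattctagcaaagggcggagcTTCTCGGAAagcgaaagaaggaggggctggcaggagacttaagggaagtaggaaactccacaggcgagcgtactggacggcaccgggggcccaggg
Irak2: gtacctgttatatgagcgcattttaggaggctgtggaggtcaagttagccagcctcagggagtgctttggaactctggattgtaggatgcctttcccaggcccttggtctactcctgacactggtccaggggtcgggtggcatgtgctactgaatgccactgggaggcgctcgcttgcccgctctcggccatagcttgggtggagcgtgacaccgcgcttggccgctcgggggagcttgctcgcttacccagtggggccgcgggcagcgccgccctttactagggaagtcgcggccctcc
Irak1: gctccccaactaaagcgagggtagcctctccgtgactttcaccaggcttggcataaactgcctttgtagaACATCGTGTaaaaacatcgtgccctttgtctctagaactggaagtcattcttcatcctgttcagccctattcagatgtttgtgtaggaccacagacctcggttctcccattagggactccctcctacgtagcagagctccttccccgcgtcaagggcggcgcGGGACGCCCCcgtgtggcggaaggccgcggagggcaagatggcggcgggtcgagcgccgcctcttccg

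The motifs were searched on both strands: kappa B by its usual consensus, TTNNGNAA for C/EBP, GAANNTTC for heat shock factor, TTCNNNGAA for STAT and ACANNNTGT for the paired half-sites of the glucocorticoid receptor. Promoters were at hand for 9 of the 10 genes. The Myd88 window held the STAT letters, TTCTCGGAA, starting at position −46 from the start site. They were found for 1 of the 9 genes, beside 8.3% of all 32841 promoters of the same length. The STAT and glucocorticoid receptor motifs were added after the data were seen, so these matches do not set a member apart. The Irak2 window held none of the motifs. In Irak1 the capitals are GGGACGCCCC for kappa B, from position −18, and ACATCGTGT for the half-sites, from position −180. Over all promoters 8.46% held kappa B letters, 6.85% the half-sites, 40.7% the C/EBP and 7.86% the heat shock letters, some of which overlap one another. Counted by gene, kappa B letters were found for 3 of the 9 (Il1r1, Irak1 and Map3k7), C/EBP letters for 4 (Il1r1, Traf6, Tollip and Map3k7) and the heat shock letters for 1 (Il1r1). Il1r1 and Irak1 each have 2 windows, for 2 annotated starts, and a match in either counts, so these counts are not on the same footing as the shares per promoter. The Irak1 windows are 3 bases apart and hold the same matches. A match describes the letters only.

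Myd88 (probe set 10597648, gene at 9:119335934-119340018 of GRCm38.p6) encodes the adaptor that links the receptor complex to the IRAK kinases. Its log2 signal was 7.58, 7.53, 7.80 and 7.58 on DMSO replicates 1 to 4, and 7.95, 8.001, 7.89 and 7.91 on the celastrol arrays. With withaferin A it was 7.80, 7.60, 7.81 and 7.60. Every celastrol array thus lay above every array of both other groups, while those 2 groups overlapped and a single DMSO array, replicate 3, sat near the upper withaferin A values. Group means were 7.62 ± 0.12 (SD, n = 4) with DMSO, 7.94 ± 0.05 after celastrol and 7.70 ± 0.12 after withaferin A. Celastrol exceeded DMSO by 0.31 ± 0.07 (SE from the limma fit, 95% interval 0.16 to 0.47), or 1.24-fold, with an unadjusted p of 0.000678 and an adjusted p of 0.0704. Withaferin A lay 0.08 ± 0.07 above DMSO (−0.07 to 0.23, adjusted p = 0.612). Compared directly, withaferin A was lower than celastrol by a log2 difference of −0.23 ± 0.07 (−0.39 to −0.08, adjusted p = 0.179).

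Irak2 (10540795, 6:113638467-113695026) encodes an IRAK family kinase that sustains signalling from Myd88 to Traf6. Its signal was 7.997, 8.02, 8.19 and 8.28 with DMSO and 8.39, 8.39, 8.54 and 8.49 with celastrol. The withaferin A arrays, at 8.44, 8.21, 8.40 and 8.10, spanned both: replicates 1 and 3 lay above all DMSO arrays, and replicates 2 and 4 below all celastrol arrays. The means were 8.12 ± 0.13 (SD, n = 4) with DMSO, 8.45 ± 0.08 after celastrol and 8.29 ± 0.16 after withaferin A. The difference between celastrol and DMSO was 0.33 ± 0.08 (SE, 95% interval 0.15 to 0.52), or 1.26-fold, with an unadjusted p of 0.00155 and an adjusted p of 0.108. For withaferin A versus DMSO it was 0.17 ± 0.08 (−0.01 to 0.35, adjusted p = 0.354), and for withaferin A versus celastrol −0.17 ± 0.08 (−0.35 to 0.02, adjusted p = 0.348). The middle position of withaferin A was therefore not separated from either neighbour beyond the error.

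**Figure D1:**
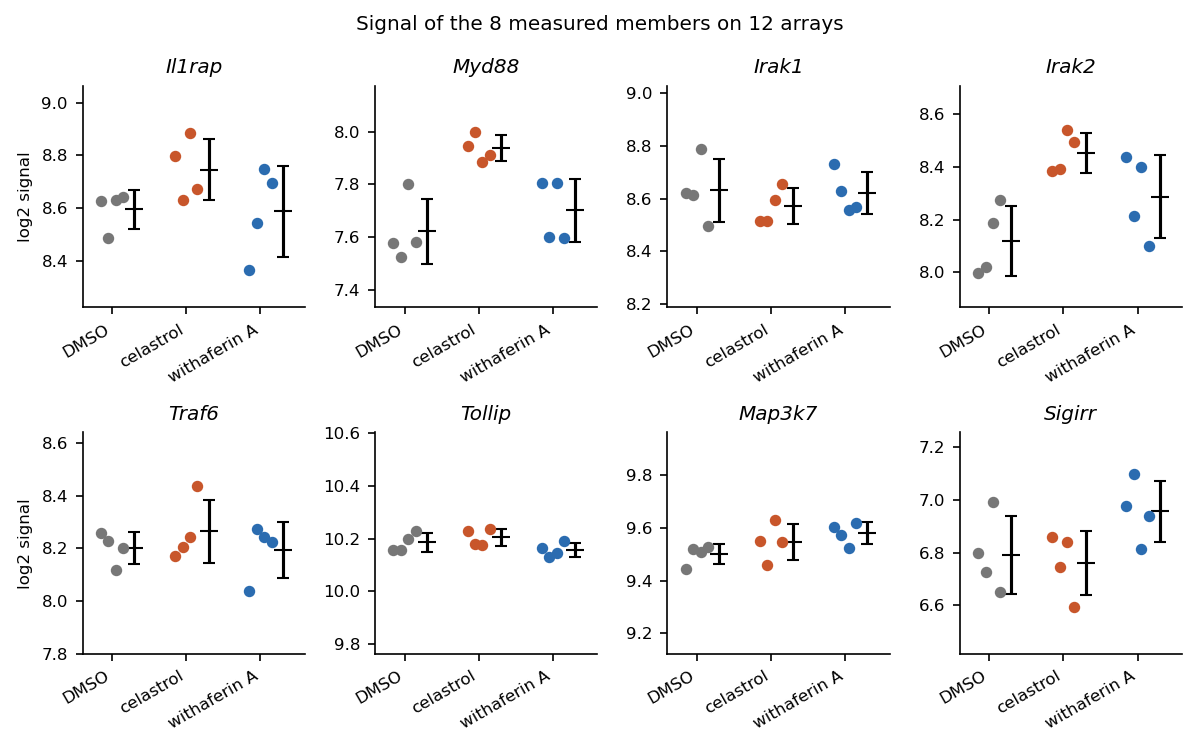
Log2 signal (vertical axis, the same span of 0.84 in each panel) of the 8 measured members on each of the 12 arrays, by treatment; points are arrays in replicate order and bars are the mean ± SD of 4. Myd88 and Irak2 were higher on all 4 celastrol arrays than on all 4 DMSO arrays, whereas Tollip ran only from 10.13 to 10.24.

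As a group, the celastrol arrays had higher Myd88 and Irak2 signals than DMSO, and also higher pituitary and lower oligodendrocyte marker scores. Without celastrol replicate 2, the array with the pituitary score of 2.13, the celastrol differences were 0.29 ± 0.08 (SE, adjusted p = 0.188) for Myd88 and 0.35 ± 0.09 (adjusted p = 0.187) for Irak2. The other celastrol arrays still had pituitary scores above every DMSO array. With pituitary and thalamus scores as covariates the differences were 0.32 ± 0.10 and 0.39 ± 0.12, with adjusted p of 0.302 and 0.296. In this setting 0 of all genes tested were called. Pituitary scores separated the celastrol from the DMSO arrays, so this fit cannot tell their part from that of celastrol. The part of the oligodendrocyte scores in the result was not tested. Myd88 had an adjusted p of 0.0369 without DMSO replicate 3, the DMSO array with the highest Myd88 signal, and of 0.0376 when only genes above the 50th percentile were tested. Both members stayed above 0 under each of the 22 alternatives. As every celastrol array lay above every DMSO array, leaving out or weighting arrays could not turn the sign. Several other alternatives, such as another filter or variance model, left the estimate itself unchanged. The constant sign is thus no further support.

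**Figure D2:**
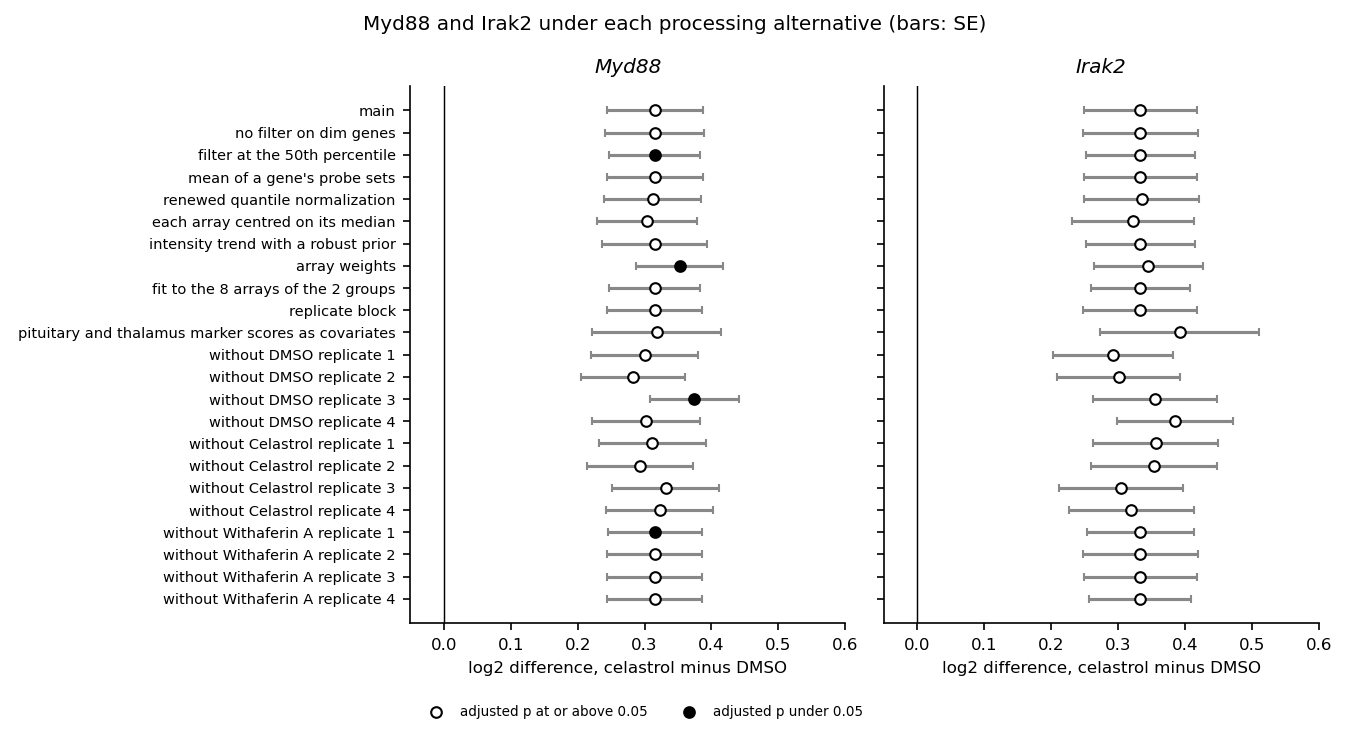
Log2 difference between celastrol and DMSO (horizontal axis; bars are SE) for Myd88 and Irak2 with the main processing and 22 alternatives (vertical axis). Values ran from 0.28 to 0.37 for Myd88, with 4 filled points past the adjusted threshold, and from 0.29 to 0.39 for Irak2, with 0 filled points.

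The accessory chain was the one member of the receptor itself with a value. Il1rap (10434845, 16:26581509-26730128) had a signal of 8.63, 8.48, 8.63 and 8.64 with DMSO, 8.80, 8.63, 8.89 and 8.67 with celastrol, and 8.36, 8.54, 8.75 and 8.69 with withaferin A. On celastrol 3 of 4 arrays lay above all DMSO arrays, and the fourth was level with them, while the withaferin A arrays reached both below and above DMSO. Celastrol exceeded DMSO by 0.15 ± 0.08 (SE, n = 4 per group; 95% interval −0.03 to 0.33, adjusted p = 0.578). For withaferin A the difference was −0.01 ± 0.08 (−0.19 to 0.17, adjusted p = 0.969), and between withaferin A and celastrol −0.16 ± 0.08 (−0.34 to 0.02, adjusted p = 0.367).

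Irak1 (10605222, X:74013914-74023921), the kinase that pairs with Irak4 at the Myd88 complex, read 8.62, 8.62, 8.79 and 8.50 with DMSO. It read 8.52, 8.52, 8.59 and 8.66 with celastrol and 8.73, 8.63, 8.56 and 8.57 with withaferin A. The 3 groups overlapped throughout, and celastrol differed from DMSO by −0.06 ± 0.07 (SE, −0.20 to 0.08, adjusted p = 0.8289). The interval of Irak1 ends below the point estimates of Myd88 (0.31) and Irak2 (0.33), which have errors of their own. Whether Irak1 differed from them was not tested. Withaferin A differed from DMSO by −0.01 ± 0.07 (adjusted p = 0.946) and from celastrol by 0.05 ± 0.07 (adjusted p = 0.745).

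Downstream of the IRAK kinases, Traf6 (10474112, 2:101678420-101701668), a ubiquitin ligase, had a signal of 8.26, 8.23, 8.12 and 8.20 with DMSO. On the celastrol arrays it was 8.17, 8.21, 8.24 and 8.44, and with withaferin A 8.04, 8.27, 8.24 and 8.23. The highest celastrol array, replicate 4, and the lowest withaferin A array, replicate 1, stood at the ends of otherwise overlapping groups. Celastrol differed from DMSO by 0.06 ± 0.07 (SE, −0.09 to 0.21, adjusted p = 0.8289), withaferin A by −0.01 ± 0.07 (−0.16 to 0.14, adjusted p = 0.970), and the compounds from each other by −0.07 ± 0.07 (adjusted p = 0.637). Without celastrol replicate 4 the celastrol difference was 0.0054. Map3k7 (10503680, 4:31963492-32023470), the kinase TAK1, was measured tightly. It lay at 9.44, 9.52, 9.51 and 9.53 with DMSO, 9.55, 9.46, 9.63 and 9.55 with celastrol and 9.60, 9.57, 9.52 and 9.62 with withaferin A. In each treated group 3 of 4 arrays were above all DMSO arrays, by small steps: celastrol differed from DMSO by 0.05 ± 0.05 (−0.06 to 0.15, adjusted p = 0.828) and withaferin A by 0.08 ± 0.05 (−0.03 to 0.19, adjusted p = 0.459). Withaferin A and celastrol differed by 0.03 ± 0.05 (adjusted p = 0.775).

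Of the restraining members, Tollip (10569265, 7:141881580-141902461), which binds IRAK kinases and holds them back, varied least, with all 12 arrays within 0.106. Its means were 10.19 ± 0.04 (SD, n = 4) with DMSO, 10.21 ± 0.03 after celastrol and 10.16 ± 0.03 after withaferin A. Celastrol differed from DMSO by 0.02 ± 0.04 (SE), and its interval of −0.08 to 0.12 leaves out changes as large as the point estimates of Myd88 and Irak2. Whether Tollip differed from them was not tested. Withaferin A differed from DMSO by −0.03 ± 0.04 (−0.12 to 0.07), with adjusted p of 0.924 for celastrol and 0.791 for withaferin A. Between the compounds the difference was −0.05 ± 0.04 (−0.14 to 0.05, adjusted p = 0.617).

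Sigirr (10569024, 7:141091175-141100597), a receptor of the same family that dampens Il1r1 and Toll-like receptor signals, had its highest mean with withaferin A, 6.96 ± 0.12 (SD, n = 4), against 6.79 ± 0.15 with DMSO and 6.76 ± 0.12 with celastrol. Its signal was 6.80, 6.72, 6.99 and 6.65 with DMSO, 6.86, 6.75, 6.84 and 6.59 with celastrol and 6.98, 7.10, 6.81 and 6.94 with withaferin A. On withaferin A 3 of 4 arrays lay above all celastrol arrays and 1 above all DMSO arrays. Withaferin A exceeded celastrol by 0.20 ± 0.09 (SE, 0.01 to 0.38), with an unadjusted p of 0.0373 and an adjusted p of 0.28. It exceeded DMSO by 0.17 ± 0.09 (−0.02 to 0.35, adjusted p = 0.363), and celastrol differed from DMSO by −0.03 ± 0.09 (−0.21 to 0.15, adjusted p = 0.938). None of these passed.

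**Figure D3:**
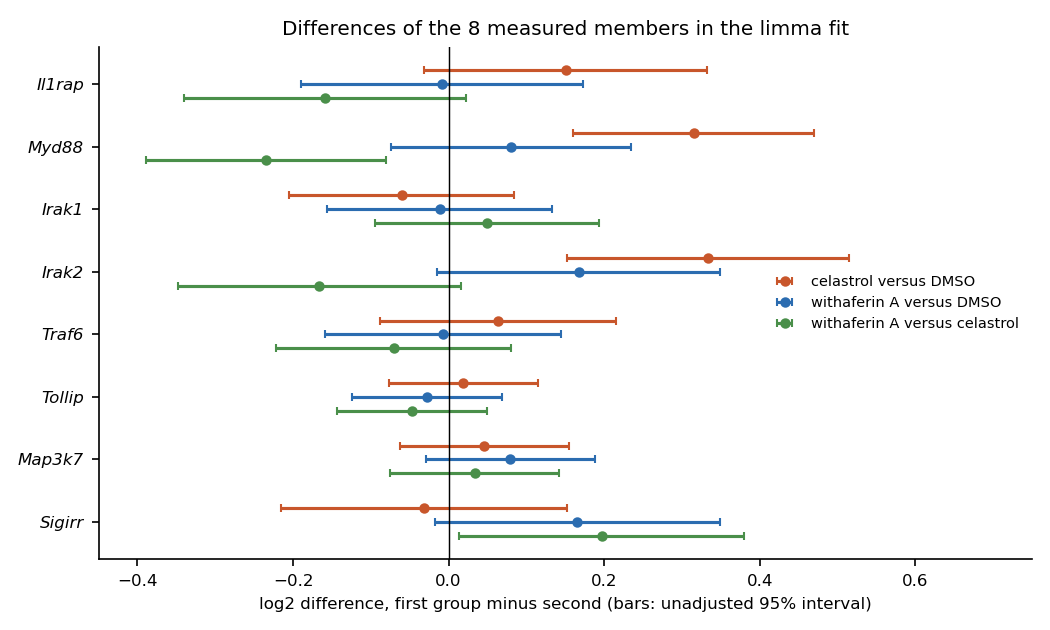
Log2 differences (horizontal axis) of the 8 measured members in the 3 comparisons; points are estimates from the limma fit and bars unadjusted 95% intervals. For celastrol versus DMSO the intervals of Myd88 (0.16 to 0.47) and Irak2 (0.15 to 0.52) lie to the right of 0, while those of the other 6 include it.

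With 8 members, each count is small and is set beside the share over all genes. The members were chosen with earlier results of these data known, so the counts and medians are a description and no support. For celastrol versus DMSO 0 of 8 members were called, where 0.769% of the 14953 genes were called. At an unadjusted p under 0.05 it was 2 of 8 against 10.4% of all genes, and groups did not overlap for 2 of 8 (Myd88 and Irak2) against 7.21%. The median difference of the members was 0.05 (6 above 0, 2 below), beside −0.02 over all genes. For withaferin A versus DMSO 0 of 8 were called (0% of all genes), 0 had an unadjusted p under 0.05 (15.7%) and 0 did not overlap (7.6%). The median was 0.04, with 4 above and 4 below 0, beside −0.0041 over all genes. For withaferin A versus celastrol 0 were called (0.0468% of all genes), 2 had an unadjusted p under 0.05 (Myd88 and Sigirr, in opposite directions; 16.1%) and 1 did not overlap (Myd88; 9.27%). The comparisons share groups, so they are not independent.

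The wider pathway was read from 62 genes in 6 lists. Of these, 44 were tested, 15 were below the 25th percentile and 3 had no probe set with only 1 gene symbol. After celastrol 5 of the 44 rose and 0 fell, beside 0.769% of all genes called, and the median difference of the 44 was 0.04. The lists were chosen with earlier results of these data known, so the count is a description and no support. Of the 5, Tlr7 also passed the filter on dim genes only through its celastrol arrays. The cytokines themselves were dim: the signals of Il1a, Il1b and the antagonist Il1rn ran over the 12 arrays from 4.09 to 5.19, from 4.94 to 5.75 and from 5.49 to 6.05, and were not tested. So were Il1r2, the decoy receptor (5.41 to 6.02), and Il18r1, Il18rap and Il1rl2. The ligands Il18 and Il33 and the antagonist Il18bp were tested, and 0 of these 3 were called. Il33, an alarmin of the family that astrocytes and oligodendrocytes hold, was 9.65 ± 0.12 (SD, n = 4) with DMSO, 9.45 ± 0.15 after celastrol and 9.37 ± 0.13 after withaferin A. Its differences from DMSO were −0.20 ± 0.09 (SE, adjusted p = 0.431) and −0.28 ± 0.09 (adjusted p = 0.19), and neither passed. Oligodendrocyte marker scores were lower on the celastrol arrays and overlapped DMSO on the withaferin A arrays. Astrocyte scores overlapped DMSO with both compounds. A link of Il33 to either score was not tested. Il18 had 0.12 ± 0.08 (adjusted p = 0.638) after celastrol.

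Of the other receptors of the family, the neuronal Il1rapl1 and Il1rapl2 were tested, with celastrol differences of 0.01 ± 0.06 (SE, adjusted p = 0.973) and −0.04 ± 0.09 (adjusted p = 0.921). Ubiquitin and kinase partners of Traf6 and Map3k7 gave 0 called of 16, with a median of 0.01 and a range from −0.15 to 0.19. The smallest p values were those of Ecsit, a Traf6 partner, at −0.15 ± 0.06 (adjusted p = 0.368), and Tab2, which tethers Map3k7 to ubiquitin chains, at −0.15 ± 0.06 (adjusted p = 0.38). Of the inflammasome genes, which process IL-1 and release it, Pycard and Gsdmd were tested, with −0.08 ± 0.08 (adjusted p = 0.817) and 0.11 ± 0.09 (adjusted p = 0.76).

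Of 8 tested Toll-like receptor and adaptor genes, many of which use Myd88 as the IL-1 receptor does, 7 did not pass after celastrol, and the other was Tlr7. Tlr7, an endosomal receptor for single-stranded RNA, had a signal of 5.59, 5.55, 5.10 and 5.78 with DMSO and 6.18, 6.32, 6.26 and 6.57 with celastrol, a difference of 0.83 ± 0.15 (SE, adjusted p = 0.027). Its DMSO mean of 5.51 and withaferin A mean of 5.75 lie under the 25th percentile of 5.81. It passed the filter, with a mean of 5.86 over 12 arrays, only through the celastrol group (6.33), so that call is given as a description; with no filter on dim genes its adjusted p was 0.0419. Cd14, a co-receptor of Tlr4, had 0.29 ± 0.09 (adjusted p = 0.207).

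Of 13 tested genes that IL-1 and NF-kB induce, 4 rose after celastrol, 0 fell and 9 did not pass. Over all genes 0.769% were called. Of the 13, 10 lay above 0 and 3 below, from −0.17 to 3.45, with a median of 0.10. This list too was chosen with earlier results known, so its count is a description. Lcn2, an acute phase lipocalin, lay at 9.63, 10.83, 10.50 and 9.59 with celastrol against 6.32 to 7.30 with DMSO, a difference of 3.45 ± 0.51 (SE, adjusted p = 0.0141). Nfkbia, the NF-kB inhibitor, rose by 0.73 ± 0.12 (adjusted p = 0.0158), and Zfp36, an mRNA decay factor, by 0.47 ± 0.07 (adjusted p = 0.0158). Ptgs2, the prostaglandin synthase of fever, rose by 0.85 ± 0.15 (adjusted p = 0.0229). The count of 5 over all lists was 0 without DMSO replicate 2, celastrol replicate 2 or celastrol replicate 3, 2 without DMSO replicate 1, and 0 with pituitary and thalamus scores as covariates.

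After withaferin A 0 of the 44 genes passed against DMSO, beside 0% of all genes called, with a median of 0.03. Nfkbia had 0.39 ± 0.12 (SE, adjusted p = 0.185), Ptgs2 0.13 ± 0.15 (adjusted p = 0.698) and Lcn2 0.70 ± 0.51 (adjusted p = 0.52). Without DMSO replicate 3 the count was 2. Compared directly, 1 of 44 was called: Zfp36 was lower with withaferin A than with celastrol by −0.51 ± 0.07 (adjusted p = 0.0238), at 6.40, 6.31, 6.44 and 6.20 against 6.70, 6.94, 6.82 and 6.92. Lcn2, Ptgs2 and Tlr7 had −2.74 ± 0.51, −0.72 ± 0.15 and −0.58 ± 0.15, with adjusted p of 0.0713, 0.0882 and 0.141. Zfp36 lost its call without celastrol replicate 2 or 3 or withaferin A replicate 2 or 4, which left 0 of 44. On withaferin A replicate 1 Lcn2 read 9.31, against 6.32 to 7.07 on the other withaferin A arrays.

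**Figure D4:**
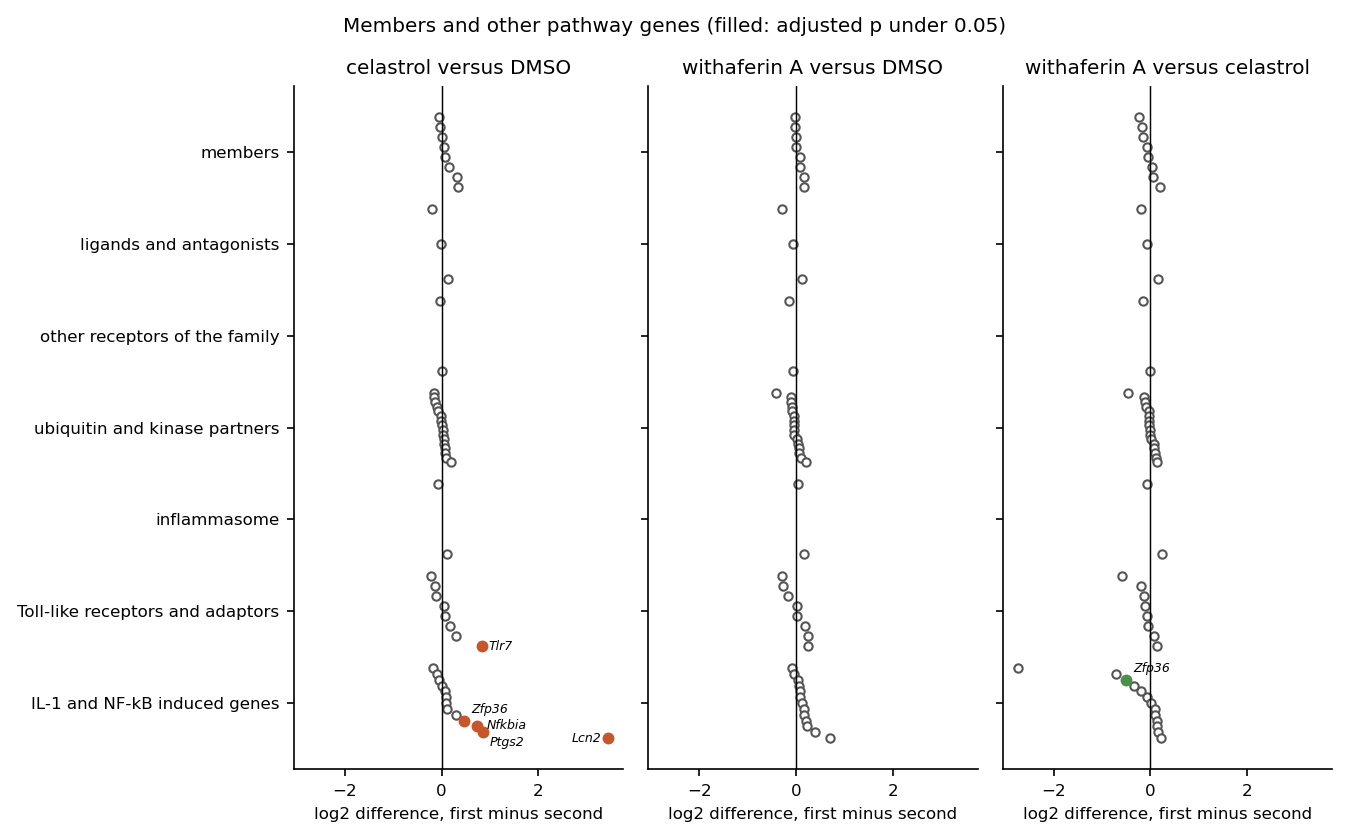
Log2 differences (horizontal axis) of the 8 measured members and the 44 tested genes of the other lists (rows), in the 3 comparisons; each point is a gene and filled points have an adjusted p under 0.05. After celastrol the filled points are Tlr7, Zfp36, Nfkbia, Ptgs2 and Lcn2, with 0 filled points among the members. In the direct comparison the filled point is Zfp36.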

How the data were processed

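RNA was measured on 12 one-colour arrays. The deposited values are log2 signals that the authors made with RMA, per the submitters' processing notes, which give no version; RMA's quantile step brings arrays to one scale and can hide a shift common to all genes. Depth has no meaning for arrays, and their number limits the precision. The values covered 35556 probe sets; 21789 had 1 gene symbol, 1621 several and 12146 none in the platform's gene table, and only the first kind was used.

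Group means were fitted to all 12 arrays across 14953 genes with limma 3.58.1 (R 4.3.3, lmFit and eBayes, 9 residual degrees of freedom, two-sided), with Benjamini-Hochberg adjustment over all genes tested and a threshold of 0.05. The fit was tested on simulated data. The labels call arrays of a group biological replicates. Planned tests of Il1r1, and the genes most like it, could not be made without a named probe set. The rule for other named genes took called members of each list or, where under 2 were called after celastrol, also the 2 of smallest p. The members and lists were chosen with earlier results of these data known. Protein sequences were not used here. Motifs for STAT and the glucocorticoid receptor were added after the data were seen. Alternatives varied the filter, probe set, scaling, variance model, weights, samples, replicate block and marker covariates, and left out each array in turn. Plots were drawn with matplotlib 3.10.9.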

Additional observations from a re-analysis of the deposited data

Results flagged for a closer look

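Il1rap on DMSO replicate 2 stood apart from its group, at 8.48 against 8.63 to 8.64 on the other DMSO arrays. Its gap to the nearest array was a larger share of the group's range than Dixon's 95% critical value for 4 samples. Each of the 8 measured members was examined in 3 groups, 24 groups of 4 in all, and chance alone flags about 5% of groups. Without that array the celastrol difference of Il1rap was 0.11 ± 0.09 (SE, adjusted p = 0.806).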

How the results depend on the processing

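Over 22 alternatives the differences of Myd88 and Irak2 between celastrol and DMSO kept their direction. Leaving out or weighting arrays could not have turned it, because the arrays of these groups did not overlap. Of the members, 0 were called for celastrol versus DMSO with the chosen processing and 1, Myd88, with the 50th percentile filter (adjusted p = 0.0376), with array weights (0.0177), without DMSO replicate 3 (0.0369) and without withaferin A replicate 1 (just under 0.05); leaving out 1 array gave 0 to 1. In the other comparisons 0 members were called under each alternative.

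Over all genes, the 115 calls for celastrol versus DMSO became 60 with no filter, 195 with an intensity trend and robust prior, 219 with array weights, 182 with the 8 arrays of both groups, 54 with the replicate block, 0 with marker covariates, and 6 to 207 with 1 array left out. The 0 calls for withaferin A versus DMSO became 8 with the trend, 21 with weights, 6 with covariates and 0 to 172 with 1 array left out. The 7 for withaferin A versus celastrol became 11 with no filter, 13 with the 50th percentile, 12 with median centring, 29 with the trend, 19 with weights, 0 with 8 arrays, 0 with covariates and 0 to 56 with 1 array left out.

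Of the other pathway genes, the 5 calls for celastrol versus DMSO became 2 with the 50th percentile filter. That filter left out Tlr7, Ptgs2 and Zfp36, while Nfkbia and Lcn2 kept their calls. The count was 0 with covariates and 0 to 5 with 1 array left out. The 0 for withaferin A versus DMSO ran from 0 to 2 with 1 array left out. The 1 for withaferin A versus celastrol became 2 with weights, 0 with 8 arrays, the block or covariates, and 0 to 2 with 1 array left out. The cause of the other changes was not tested.

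Members that turned sign had small differences and were never called. For celastrol versus DMSO, Sigirr was 0.021 with weights and 0.0078 with covariates, and Irak1 0.044 with covariates. For withaferin A versus DMSO a renewed quantile normalization gave Il1rap 0.013, Irak1 0.010, Traf6 0.00020 and Tollip 0.035, weights gave Il1rap 0.026 and Irak1 0.0058, and covariates Irak1 0.035. For withaferin A versus celastrol, Tollip was 0.0017 with quantile normalization, Map3k7 −0.0010 with median centring, and Irak1 −0.0090 and Map3k7 −0.011 with covariates. With 1 array left out, Sigirr ran from −0.079 to 0.035 for celastrol, and Il1rap from −0.062 to 0.066, Irak1 from −0.056 to 0.041 and Traf6 from −0.035 to 0.045 for withaferin A versus DMSO.

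Same-numbered arrays did not visibly deviate together (12 pairs, r from −0.28 to 0.12, 2 over 0.1). Pairs with different numbers had r from −0.20 to 0.23 (36 pairs, 10 over 0.1). Pairing by number was thus not seen, but so few pairs cannot exclude it. With the replicate block Myd88 had an adjusted p of 0.12 and Irak2 of 0.157. Sigirr could not be fitted with the 50th percentile filter.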

Other observations

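The genes whose signal followed Myd88 and Irak2 most closely over the 12 arrays were looked up after the values were seen, in place of the planned search for Il1r1. The arrays include the treatment groups, so genes that differ between groups score high, and the correlations are a description. For Myd88, among 14952 other genes, they were Anapc16 (Pearson's r 0.97), Tgm2 (0.95), Lrrc8a (0.93), Fam107a (0.92) and Txnip (0.92). Txnip, an arrestin that curbs glucose uptake, differed between celastrol and DMSO by 0.81 ± 0.09 (SE, n = 4 per group, adjusted p = 0.00463) and between withaferin A and celastrol by −0.70 ± 0.09 (adjusted p = 0.0231). The order of its groups was that of Myd88, which its choice by correlation with Myd88 favoured. Tgm2, a transglutaminase, and Fam107a rose after celastrol by 0.59 ± 0.11 and 0.50 ± 0.10 (adjusted p = 0.0326 and 0.0366). Anapc16 and Lrrc8a had 0.17 ± 0.06 and 0.30 ± 0.09 and did not pass (adjusted p = 0.234 and 0.157).

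For Irak2 the closest were Slc2a1 (0.95), Arrdc2 (0.94), Nfkbia (0.93), Herpud1 (0.92) and Sgk1 (0.92). Slc2a1, the glucose transporter of the blood-brain barrier, rose after celastrol by 0.75 ± 0.15 (adjusted p = 0.0384), Arrdc2 by 0.70 ± 0.12 (0.0191) and Sgk1, a kinase gene induced by corticosteroids, by 0.86 ± 0.17 (0.0381). After withaferin A these 3 had 0.36 ± 0.15, 0.45 ± 0.12 and 0.45 ± 0.17, with adjusted p of 0.273, 0.168 and 0.249. Herpud1 had 0.20 ± 0.06 after celastrol and did not pass (adjusted p = 0.195).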
